A study of Mus musculus with 6 samples.

Results

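Bone morphogenetic proteins (BMPs) are secreted signals of the TGF-beta superfamily, and the 10 genes described here carry the signal from ligand to nuclear target: *Bmp4*, *Bmpr1a*, *Bmpr2*, *Smad1*, *Smad5*, *Smad6*, *Id1*, *Id2*, *Id3* and *Id4*. They were chosen by symbol, not by their values, from 37620 genes in the count table. All 10 passed the filter on low counts, which kept 16023 genes for testing. PolyA RNA was sequenced from E14 mouse embryonic stem cells (ESCs), a line of strain 129/Ola, in 3 wild-type libraries and 3 libraries of *Ube2d3*-S138A cells. UBE2D3 is a ubiquitin-conjugating enzyme, and in the S138A cells a serine near its C-terminus is replaced with alanine. Cells of both genotypes grew in 15% fetal bovine serum, which is known to hold BMP activity, on gelatin and with no feeder layer stated. The study's functional work used 1 mutant clone, the source of the sequenced cells is not stated beyond the genotype, and an effect of the substitution and a difference between clones cannot be told apart here.

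A BMP ligand brings a type I receptor and a type II receptor together at the cell surface. The type I receptor then phosphorylates SMAD1 or SMAD5, which join SMAD4 and enter the nucleus, where the Id genes are among their best-known direct targets. Id proteins bind E proteins, transcription factors of the basic helix-loop-helix class, and keep them off DNA. In mouse ESCs grown with LIF, BMP4 in serum is known to induce Id genes and thereby to hold back neural differentiation. These statements are background and were not measured here.

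The libraries held 33227593 to 37169770 counts. Levels are given as CPM, the counts of a gene scaled to a common library size with TMM factors, and changes as the log2 fold change of S138A against wild-type cells with its standard error (SE). Tests are edgeR's quasi-likelihood test, with Benjamini-Hochberg adjustment over all genes tested and a threshold of 0.05. The S138A libraries are named A, B and C, as their columns give no number that the labels share. The first principal component, with 57.2% of the variance, set wild-type 3 and S138A C against the remaining 4 libraries. A second fit (the block) therefore has the replicate number as a term, read from the last digit of the column names, and is given beside each result whose call it changes. The labels do not say whether replicates were separate cultures, so p-values measure the spread between these libraries, which may be technical. Markers of pluripotent cells summed to between 6873 and 7803 CPM in wild-type and between 7016 and 7745 CPM in S138A libraries, and *Pou5f1*, the gene of OCT4, had 954 to 1429 CPM. For *Ube2d3* itself the log2 fold change was -0.06 (edgeR adjusted p = 0.945), and a substitution cannot be seen in gene counts.

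The means of *Bmp4*, *Bmpr2*, the SMADs and *Id2* differed between the genotypes by less than the SD of the libraries. *Id1* and *Id3* had higher means in S138A cells, and *Bmpr1a* and *Id4* lower ones. With genotype alone in the model, 0 of the 10 genes passed the threshold, as did 0.0% of all genes tested. At an unadjusted p under 0.05 the count was 0 of the 10 genes and 2270 of all 16023. DESeq2 called 797 genes, 2.62% of those tested higher and 2.35% lower, limma-voom called 0, and neither called any of the 10. With the replicate block, *Id1* and *Id3* were called higher and 0 of the 10 were called lower. In that fit 10.7% of all genes were called higher and 9.13% lower. When wild-type 3 and S138A C were left out, the remaining 4 libraries gave 2 of the 10 higher, *Id1* and *Id3*, and 1 lower, *Bmpr1a*, where the shares of all genes were 15.3% and 14.3%. The shares over all genes are thus of the same order as 2 of 10 and 1 of 10. The median log2 fold change of the 10 genes was 0.03, against 0.02 over all genes.

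**Figure D1:**
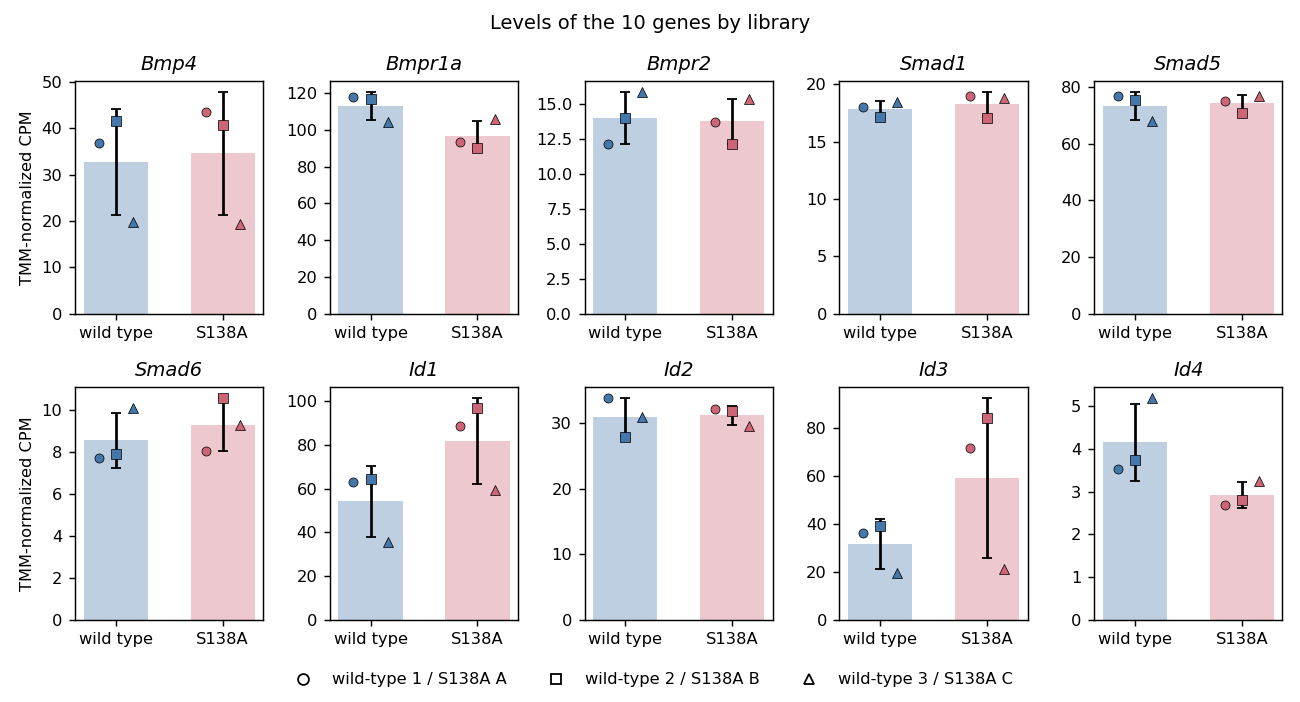
TMM-normalized CPM of the 10 genes in wild-type and S138A ESCs, each gene on its own axis starting at 0. Bars are means, error bars the SD of 3 libraries, and points single libraries, with a symbol shared by wild-type 1 and S138A A, by 2 and B, and by 3 and C. *Id1* has means of 54.4 and 81.8, *Id3* of 31.5 and 59.0, and wild-type 3 and S138A C hold the lowest *Bmp4*, *Id1* and *Id3* of their genotypes.

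*Bmp4* (ENSMUSG00000021835) encodes the ligand. Its gene occupies bases 46383520 to 46390669 of chromosome 14, on the - strand (GRCm38, GENCODE M21, used for all gene positions here, while the counts were made on an older build). Its levels were 36.9, 41.5 and 19.7 CPM in wild-type 1, 2 and 3, and 43.6, 40.8 and 19.4 in S138A A, B and C. The libraries fell into a high set of 4 and a low set of wild-type 3 and S138A C, and wild-type 1 and 2 overlapped with S138A A and B. A log2 fold change of 0.08 was fitted (SE 0.37, adjusted p = 0.947 from edgeR). With the block the log2 fold change was 0.07 (SE 0.09).

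*Bmpr1a* (ENSMUSG00000021796; chromosome 14, 34410734 to 34503341, - strand) encodes the type I receptor through which BMP4 signals. Its levels were 117.7, 117.0 and 104.5 CPM in the wild-type libraries and 93.5, 90.4 and 106.0 CPM in S138A A, B and C. S138A A and B lay below every wild-type library, and S138A C lay above wild-type 3. On the log2 scale the fold change was -0.23 (SE 0.11, adjusted p = 0.393 from edgeR), and with the block the adjusted p was 0.117. By replicate number the differences were -0.33, -0.37 and 0.02 on the log2 scale. Without wild-type 3 and S138A C the log2 fold change was -0.36 (SE 0.06, adjusted p = 0.00419 from edgeR), so the call depended on those libraries.

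*Bmpr2* (ENSMUSG00000067336; chromosome 1, 59763400 to 59879014, + strand) encodes the type II receptor that phosphorylates the type I receptor. Its levels were 12.1, 14.0 and 15.9 CPM in wild-type and 13.7, 12.2 and 15.4 CPM in S138A libraries. The genotypes covered nearly the same range, and the log2 fold change was -0.02 (SE 0.16, adjusted p = 0.966 from edgeR).

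*Smad1* and *Smad5* encode the receptor-activated SMADs of this pathway. *Smad1* (ENSMUSG00000031681; chromosome 8, 79338395 to 79399518, - strand) had 18.0, 17.1 and 18.5 CPM in wild-type and 19.0, 17.1 and 18.8 CPM in S138A libraries. Among wild-type libraries it varied least of the 10 genes relative to its mean, with an SD of 0.685 CPM on a mean of 17.9. *Smad5* (ENSMUSG00000021540; chromosome 13, 56703010 to 56742377, + strand) had 76.9, 75.3 and 67.8 CPM in wild-type and 75.0, 70.9 and 76.8 CPM in S138A libraries. Both genes overlapped between genotypes, with log2 fold changes of 0.03 (SE 0.12) for *Smad1* and 0.02 (SE 0.10) for *Smad5*. Neither passed the test (adjusted p = 0.931 and 0.956 from edgeR).

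*Smad6* (ENSMUSG00000036867; chromosome 9, 63953076 to 64022059, - strand) encodes an inhibitory SMAD that is induced by BMP signals and limits them. Its levels were 7.69, 7.91 and 10.1 CPM in wild-type and 8.03, 10.6 and 9.30 CPM in S138A libraries. The highest wild-type library, 3, lay between S138A C and S138A B. Its log2 fold change was 0.12 (SE 0.19, adjusted p = 0.818 from edgeR).

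The 4 Id genes are the nuclear targets, and *Id1* and *Id3* are the ones most often used as readouts of BMP signals. *Id1* (ENSMUSG00000042745; chromosome 2, 152736251 to 152737410, + strand) had 63.1, 64.45 and 35.65 CPM in wild-type 1, 2 and 3. In S138A A, B and C it had 88.8, 97.0 and 59.7 CPM. S138A A and B exceeded every wild-type library, while S138A C lay below wild-type 1 and 2 and above wild-type 3. The log2 fold change was 0.59 (SE 0.27, adjusted p = 0.393 from edgeR). By the last digit of the column names, which is not a stated pairing, the differences were 0.49, 0.59 and 0.74 on the log2 scale. Each was positive, and the share of all genes with a single sign in such differences was not counted. With the block the log2 fold change was 0.61 (SE 0.08, adjusted p = 0.00687 from edgeR), and *Id1* passed. It also passed in the 4 libraries left without wild-type 3 and S138A C (0.54, SE 0.06, adjusted p = 0.00162).

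*Id3* (ENSMUSG00000007872; chromosome 4, 136143497 to 136145755, + strand) had 36.0, 39.0 and 19.5 CPM in wild-type 1, 2 and 3. In S138A A, B and C it had 71.5, 84.2 and 21.2 CPM. S138A A and B stood far above every wild-type library, but S138A C lay below wild-type 1 and 2 and close to wild-type 3. The log2 fold change was 0.91 (SE 0.50, adjusted p = 0.472 from edgeR). The differences by the last digit of the column names were 0.99, 1.11 and 0.12 on the log2 scale, each positive and the third much smaller. Here too the pairing is not a stated one. With the block the log2 fold change was 0.76 (SE 0.18, adjusted p = 0.0261 from edgeR), and without wild-type 3 and S138A C it was 1.05 (SE 0.09, adjusted p = 0.000424).

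*Id4* (ENSMUSG00000021379; chromosome 13, 48261228 to 48266026, + strand) had 117, 118 and 198 counts in wild-type 1, 2 and 3 and 93, 103 and 121 counts in S138A A, B and C, the lowest counts of the 10 genes. These were 3.54, 3.73 and 5.19 CPM against 2.69, 2.80 and 3.26 CPM. In CPM every S138A library was below every wild-type library, which held for none of the other 9 genes. In plain counts S138A C was above wild-type 1 and 2. Among all genes tested, 10.9% had S138A libraries below and 11.3% above all wild-type libraries, so 1 of 10 is near the background. The log2 fold change was -0.51 (SE 0.23, adjusted p = 0.388 from edgeR), and the adjusted p was 0.0644 with the block.

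*Id2* (ENSMUSG00000020644; chromosome 12, 25093799 to 25097140, - strand) had 33.8, 28.0 and 31.0 CPM in wild-type and 32.2, 31.9 and 29.6 CPM in S138A libraries. All 3 S138A libraries lay within the range of the wild-type libraries, at a log2 fold change of 0.01 (SE 0.11, adjusted p = 0.975 from edgeR). Unlike *Bmp4*, *Id1* and *Id3*, *Id2* was not markedly low in wild-type 3 or S138A C.

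**Figure D2:**
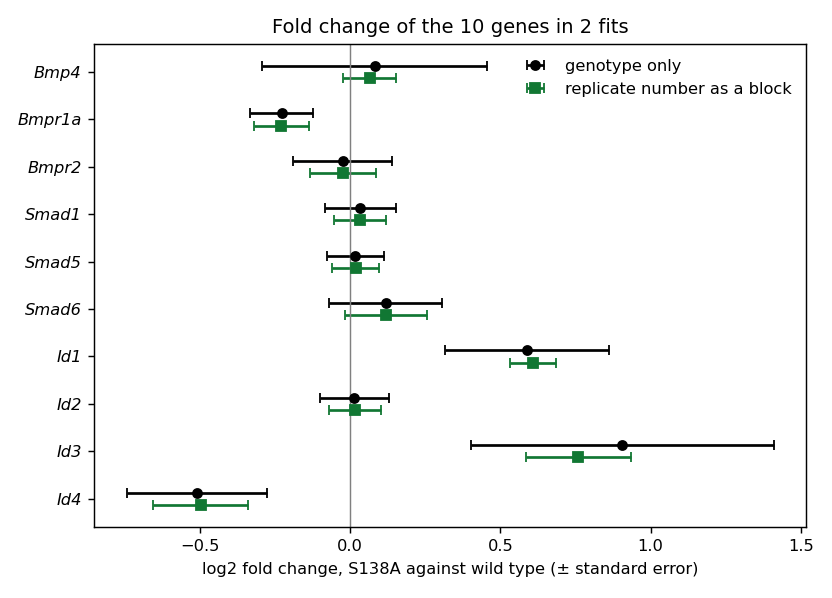
Log2 fold change of S138A against wild-type ESCs for the 10 genes, with bars of 1 standard error, fitted with genotype only (black circles) and with the block (green squares). The block leaves *Id1* near 0.6 and narrows its standard error from 0.27 to 0.08, and it moves *Id3* from 0.91 to 0.76.

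Levels of different genes can be compared only per length, here as CPM per kilobase of the longest coding transcript. In wild-type cells *Id1* was the most abundant at 46.9 ± 14.0 CPM per kilobase (SD, n = 3 libraries, as for the values that follow). *Id3* had 24.6 ± 8.20, *Bmpr1a* 19.0 ± 1.25, *Bmp4* 15.9 ± 5.57 and *Id2* 15.7 ± 1.48 CPM per kilobase. Each of these last 4 genes overlapped with its neighbour in the order within the spreads, although *Bmpr1a* and *Id2* did not overlap. *Id1* and *Id3* were further apart than the SD of either. *Smad5* followed with 11.1 ± 0.735 CPM per kilobase, then *Smad1* with 4.73 ± 0.181 and *Smad6* with 2.88 ± 0.442, each below the one before by more than the SDs. *Bmpr2* and *Id4* were lowest, at 1.09 ± 0.144 and 1.08 ± 0.234 CPM per kilobase, and could not be ordered. In S138A cells *Id1* had 70.6 ± 16.9 and *Id3* 46.1 ± 26.1 CPM per kilobase, and *Id4* had 0.758 ± 0.0785, now below *Bmpr2* at 1.07 ± 0.125. Counts were pooled over all cells of a culture, so fewer expressing cells and less RNA per cell cannot be told apart.

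Because wild-type 3 and S138A C were low in *Bmp4*, *Id1* and *Id3* alike, ratios of plain counts within each library were also taken. They were chosen after the levels were seen, and are a description with no test. Dividing by *Bmp4* takes out part of the spread that it shares with *Id1* and *Id3*. The share of gene pairs whose ratios do not overlap between genotypes was not counted. Among single genes, 11.3% had S138A libraries above and 10.9% below all wild-type libraries. The ratio of *Id1* to *Bmp4* was 1.71, 1.55 and 1.81 in wild-type 1, 2 and 3, and 2.04, 2.38 and 3.08 in S138A A, B and C. The lowest S138A ratio was above the highest wild-type ratio, and S138A C had the highest ratio. The ratio of *Id3* to *Bmp4* was 0.975, 0.938 and 0.989 in wild-type libraries, a mean of 0.967 ± 0.0263 (SD, n = 3). In S138A A, B and C it was 1.64, 2.06 and 1.10. Here too the genotypes did not overlap, although S138A C came close to wild-type 3. The ratio of *Id3* to *Id1* was 0.570, 0.605 and 0.547 in wild-type libraries. It was 0.805, 0.868 and 0.356 in S138A A, B and C. S138A A and B lay above and S138A C below all wild-type libraries, so the Id genes did not keep one proportion to each other in the S138A libraries. Against *Id2* the ratio of *Id1* overlapped between the genotypes, at 1.87, 2.30 and 1.15 in wild-type 1, 2 and 3 and 2.76, 3.04 and 2.02 in S138A A, B and C. The ratio of *Smad6* to *Smad5* overlapped too. That of *Id4* to *Id1* did not, at 0.0561, 0.0579 and 0.146 in wild-type libraries against 0.0303, 0.0289 and 0.0547 in S138A A, B and C. It divides a gene with a lower mean in S138A cells by a gene with a higher mean, so it says little beyond their levels.

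**Figure D3:**
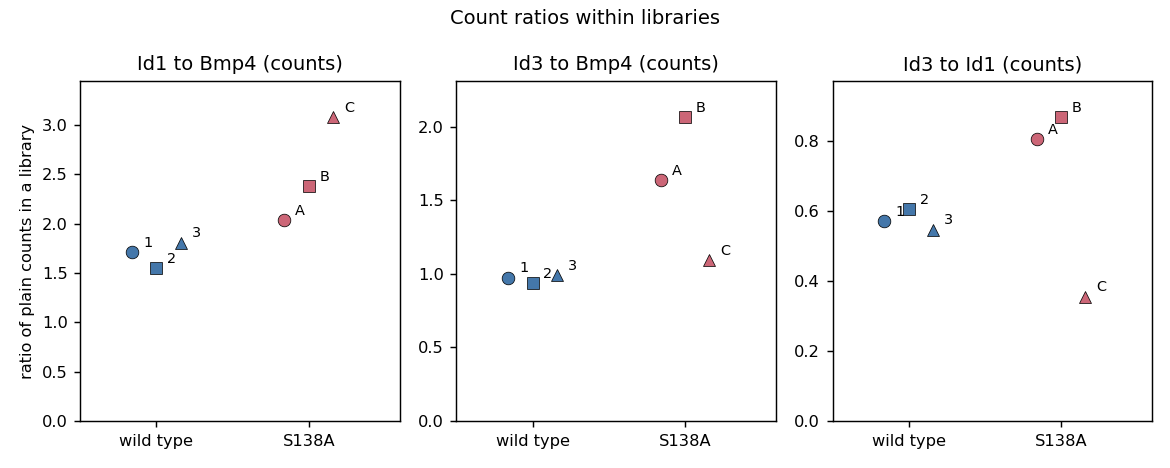
Ratios of plain counts within each library for *Id1* to *Bmp4*, *Id3* to *Bmp4* and *Id3* to *Id1*, with 1 point per library and axes starting at 0. The first and second ratios are higher in each S138A library than in any wild-type library, and the third has S138A C, at 0.356, below and S138A A and B above the wild-type libraries. The share of all gene pairs with such a separation was not counted.

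SMAD1 and SMAD5 bind DNA with SMAD4 at GC-rich elements such as GGCGCC and at GTCT, and the palindrome GTCTAGAC was found as a SMAD binding element in selection experiments. Promoter sequences were matched by symbol in a RefSeq set of windows running from 250 bases before to 50 bases after the annotated start of each gene (GRCm38.p6), and both strands were searched. Of the 10 genes 9 had an entry, with 11 windows in all, and *Id1* had none. GGCGCC was in a window of 5 of the 9, *Bmpr1a*, *Bmpr2*, *Smad5*, *Id2* and *Id4*, and in 11.9% of 32851 windows over all genes. The windows of the 9 were GC-rich, at 59.3% to 79.3%, against a median of 52.7% over all windows. Among the 9833 windows with a GC content in that range, 28.8% held GGCGCC. The shorter GTCT was in a window of 6 of the 9 and in 88.0% of all windows. The counts among the 9 are per gene, and *Smad5* had several windows, while the shares are per window, so these are not like measures. The 250 bases before the start of the Id factors with an entry are printed with GGCGCC and GTCT of either strand (GTCT then reads AGAC) in capitals. They are shown because these 3 genes lie at the end of the pathway and had log2 fold changes near 0, above 0 and below 0. The windows are chr12:25096093-25096342 for *Id2* (- strand), chr4:136143572-136143821 for *Id3* (+ strand) and chr13:48260866-48261115 for *Id4* (+ strand). The start is the one annotated in RefSeq, and the windows of *Id2* and *Id3* lie inside the gene spans from GENCODE given above.
Id2: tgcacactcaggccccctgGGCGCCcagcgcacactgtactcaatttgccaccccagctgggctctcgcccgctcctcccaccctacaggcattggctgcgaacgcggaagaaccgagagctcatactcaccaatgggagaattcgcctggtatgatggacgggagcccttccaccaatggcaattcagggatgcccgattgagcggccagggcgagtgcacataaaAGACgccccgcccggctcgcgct
Id3: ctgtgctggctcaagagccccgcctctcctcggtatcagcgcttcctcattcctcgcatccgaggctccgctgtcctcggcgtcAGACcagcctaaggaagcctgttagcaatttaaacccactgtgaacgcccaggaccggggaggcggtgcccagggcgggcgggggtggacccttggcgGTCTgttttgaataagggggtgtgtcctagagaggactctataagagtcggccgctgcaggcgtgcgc
Id4: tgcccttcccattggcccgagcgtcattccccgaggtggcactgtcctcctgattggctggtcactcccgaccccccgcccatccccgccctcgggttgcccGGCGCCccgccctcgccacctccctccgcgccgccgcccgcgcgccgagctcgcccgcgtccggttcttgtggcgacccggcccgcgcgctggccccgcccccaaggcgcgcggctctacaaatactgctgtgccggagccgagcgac
GGCGCC began 231 bases before the start in *Id2* and 148 bases before it in *Id4*, and *Id3* held none in its window. GTCT began 166 and 68 bases before the start in *Id3* and 23 bases before it in *Id2*. The palindrome was in 70 of all windows (0.213%) and, among the 9, in that of *Smad6* only, where it began 4 bases before the start. It is shown in capitals within 30 bases across that start, at chr9:64022045-64022074 (- strand).
Smad6: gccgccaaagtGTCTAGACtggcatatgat
These matches describe letters in a window and are not binding measurements, and elements further from the start were not searched.

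Of 62 other genes of the pathway listed by role, 50 passed the filter on low counts. With genotype alone in the model 0 of the 50 were called, and DESeq2 called 4 higher and 1 lower, beside 2.62% and 2.35% of all genes. With the block 12 were called higher and 1 lower, where the shares of all genes were 10.7% and 9.13%. Their median log2 fold change was 0.14, against 0.02 over all genes. The groups did not overlap in 12 genes with S138A libraries above and in 3 with S138A libraries below, where the shares of all genes were 11.3% and 10.9%.

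Among 9 receptors and co-receptors, 4 were called higher with the block and 0 lower, beside 10.7% and 9.13% of all genes. *Eng* encodes endoglin, a co-receptor for BMP9 and BMP10, and had 23.3, 25.5 and 27.6 CPM in wild-type and 41.1, 42.9 and 40.6 CPM in S138A libraries. The genotypes did not overlap and S138A C was no exception. Its log2 fold change was 0.71 (SE 0.11, adjusted p = 0.169 from edgeR), and the adjusted p was 0.00592 with the block and 2.14e-06 with DESeq2. *Acvrl1* encodes ALK1, the type I receptor that works with endoglin, and had 1.54, 2.59 and 2.12 CPM in wild-type and 4.17, 4.49 and 5.80 CPM in S138A libraries. It too did not overlap, with a log2 fold change of 1.21 (SE 0.27, adjusted p = 0.191 from edgeR and 0.0106 with the block). *Rgma*, a co-receptor for BMP2 and BMP4, did not overlap either, with a log2 fold change of 0.91 (SE 0.22, adjusted p = 0.198 from edgeR) and of 0.92 with the block (SE 0.18, adjusted p = 0.0165). *Acvr2b*, a type II receptor, overlapped between the genotypes, with a log2 fold change of 0.62 (SE 0.30, adjusted p = 0.408 from edgeR) and of 0.59 with the block (SE 0.11, adjusted p = 0.0157). *Bmpr1b*, named here after its values were seen, had 1.09, 0.981 and 1.02 CPM in wild-type and 0.927, 0.951 and 0.674 CPM in S138A libraries. In CPM every S138A library lay below every wild-type library, as in 10.9% of all genes tested. In plain counts the genotypes overlapped, at 36, 31 and 39 against 32, 35 and 25. The log2 fold change of *Bmpr1b* with the block was -0.29 (SE 0.25, adjusted p = 0.435 from edgeR).

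Of 7 ligands tested, the block called *Bmp7* and *Bmp8b* higher, beside 10.7% of all genes. *Bmp7* had 2.51, 3.16 and 9.15 CPM in wild-type and 3.94, 4.68 and 17.9 CPM in S138A libraries, and *Bmp8b* had 10.6, 9.14 and 7.58 against 16.6, 16.8 and 8.17 CPM. *Bmp7* was highest and *Bmp8b* lowest in wild-type 3 and S138A C. *Gdf6*, with the smallest p of the ligands, had under 1 CPM in every library and an adjusted p of 0.1 with the block in edgeR. Of 5 further SMADs, *Smad7* was called higher with the block (adjusted p = 0.0161 from edgeR), beside 10.7% of all genes. *Smad7* is an inhibitory SMAD like *Smad6*, and had 70.5, 72.8 and 68.3 CPM in wild-type and 84.9, 95.8 and 94.5 CPM in S138A libraries. Its log2 fold change was 0.38 (SE 0.09 without and 0.07 with the block), the genotypes did not overlap, and DESeq2 also called it (adjusted p = 0.0109). The common partner *Smad4* had a log2 fold change of 0.01 (SE 0.10, adjusted p = 0.973 from edgeR).

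Of 6 further targets tested, 4 were called higher with the block, beside 10.7% of all genes. *Dusp9*, a phosphatase of ERK that BMP signals are known to induce in ESCs, had 113.4, 121.3 and 229.6 CPM in wild-type 1, 2 and 3. In S138A A, B and C it had 227.0, 222.5 and 364.0 CPM. S138A A and B lay just below wild-type 3, so the genotypes overlapped, and the libraries that were low in *Id1* and *Id3* were the high ones here. *Dusp9* had a mean difference of 0.81 on the log2 scale (SE 0.32, adjusted p = 0.331 from edgeR), and the adjusted p with the block was 0.00398. Among transcription factor genes, *Msx2*, *Gata2* and *Gata3* had log2 fold changes of 0.95, 0.99 and 0.61 with the block and did not overlap between genotypes, at under 6 CPM in every library. Their adjusted p-values in that fit were 0.0331, 0.0357 and 0.0468 from edgeR. The other 2 targets were not called. *Hey1*, a repressor gene named here after its values were seen, had 4.87, 5.06 and 5.92 CPM in wild-type and 4.17, 3.40 and 4.75 CPM in S138A libraries. Every S138A library of *Hey1* was below every wild-type library, as in 10.9% of all genes tested. With the block its log2 fold change was -0.37 (SE 0.15, adjusted p = 0.115 from edgeR), and *Msx1* had one of 0.20 (SE 0.27).

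Of 12 intracellular regulators, *Zfp423*, a SMAD cofactor, was called higher and *Ppm1a*, a phosphatase that acts on SMADs, was called lower with the block. The shares of all genes in that fit were 10.7% higher and 9.13% lower. *Zfp423* had 76.7, 78.0 and 24.25 CPM in wild-type and 91.9, 98.0 and 34.9 CPM in S138A libraries, and the genotypes overlapped. Its log2 fold change was 0.33 without the block (SE 0.525, adjusted p = 0.819 from edgeR) and 0.37 with it (SE 0.08, adjusted p = 0.0208). *Ppm1a* had 167.2, 163.4 and 170.0 CPM in wild-type and 141.1, 135.4 and 140.9 CPM in S138A libraries, a log2 fold change of -0.26 without the block (SE 0.08, adjusted p = 0.251 from edgeR) and with it (SE 0.06, adjusted p = 0.0287). The ubiquitin ligase genes *Smurf1* and *Smurf2*, whose products target SMADs and BMP receptors, had log2 fold changes of 0.18 (SE 0.10) and -0.29 (SE 0.16). Neither passed in either fit, and *Smurf2* had an adjusted p of 0.0524 with the block in edgeR. None of the 8 secreted antagonists and modulators tested was called in either fit. *Twsg1*, the most abundant of them, had a log2 fold change of 0.13 (SE 0.22), and *Chrd*, which encodes chordin, had one of 0.49 (SE 0.22). The 3 E protein genes, the partners of Id proteins, were not called in either fit, with log2 fold changes of 0.05 (*Tcf3*), 0.07 (*Tcf12*) and -0.21 (*Tcf4*). Without wild-type 3 and S138A C, *Tcf4* was called lower (adjusted p = 0.0259 from edgeR), as were 14.3% of all genes.

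**Figure D4:**
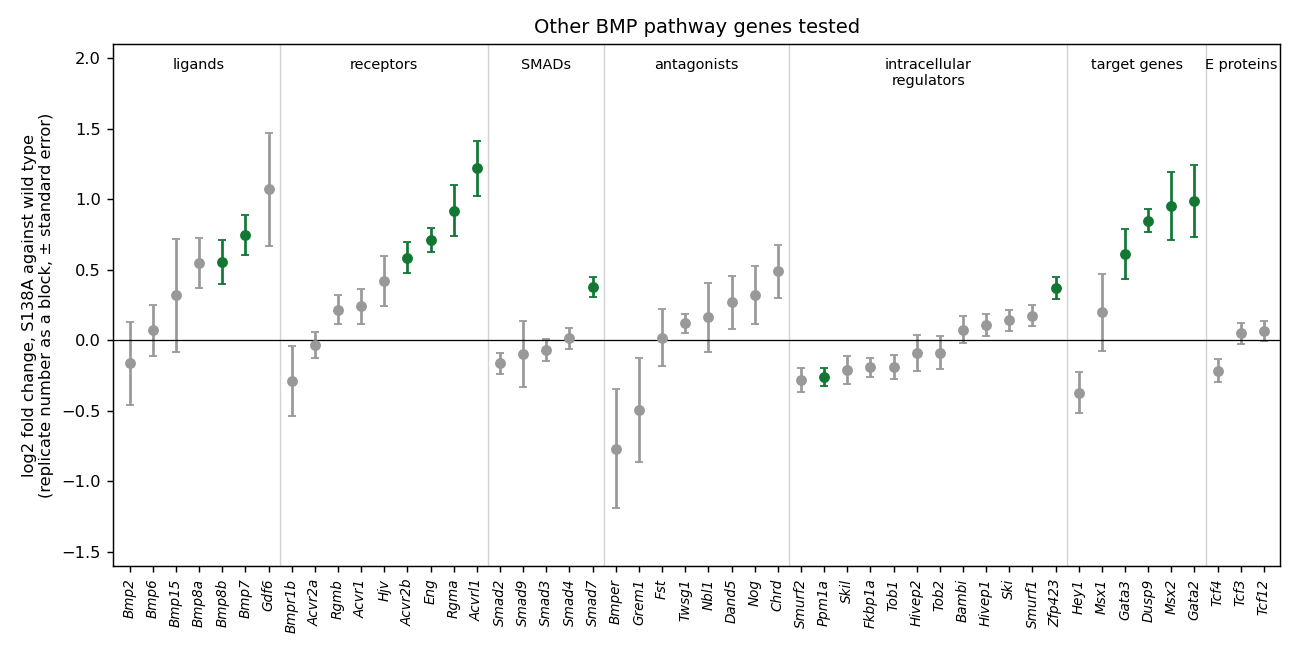
Log2 fold change of the 50 other pathway genes tested, S138A against wild-type ESCs, fitted with the block, with bars of 1 standard error, grouped by role. The 13 green points passed an adjusted p of 0.05, of which *Ppm1a* at -0.26 is the only one below 0 and *Acvrl1* at 1.22 the highest.

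Sums over markers of some other cell types moved along with part of these values. The 10 fibroblast and feeder markers summed to 67.3, 67.3 and 105.9 CPM in wild-type and 139.0, 147.8 and 102.5 CPM in S138A libraries, high in S138A A and B as *Id3* was. With the block 4 of the 7 tested were called higher, *Col1a1*, *Col3a1*, *Col6a1* and *Thy1*, and 0 lower, beside 10.7% and 9.13% of all genes. *Col1a1* held the largest share of the sum in S138A A and B, with 68.8 and 75.0 CPM. *Col1a2* went the other way, at a log2 fold change of -0.22 with the block (SE 0.12), and was not called. *Lum* was at 0 in 5 libraries and *Dcn* had at most 0.158 CPM. The 9 primitive streak and mesoderm markers summed to 22.9, 23.2 and 13.6 CPM in wild-type and 36.3, 40.4 and 16.9 CPM in S138A libraries, in the same order as *Id3*. Of 8 tested, *Cdx1* and *Cdx2* were called higher with the block and 0 lower, beside 10.7% and 9.13% of all genes. *Kdr* went the other way, at a log2 fold change of -0.32 with the block (SE 0.26), and was not called. *Kdr* had 3.62 CPM in wild-type 3 and 1.40 CPM in S138A C, while *Cdx1* had 1.02 and 5.77 CPM there. The 10 primitive endoderm markers summed to between 402.7 and 476.3 CPM in wild-type and between 418.7 and 492.4 CPM in S138A libraries. With the block *Col4a1* was called higher (log2 fold change 0.45, adjusted p = 0.0253 from edgeR) and *Lama1* lower (-0.43, adjusted p = 0.0128). Among the 10 pluripotency markers *Klf4* was called higher (0.39, adjusted p = 0.0251) and *Zfp42* lower (-0.36, adjusted p = 0.0321). The genotypes did not overlap in *Lama1* and *Zfp42*. For both lists the shares of all genes were 10.7% and 9.13%. The part of these markers in the values of *Id1* and *Id3* was not tested.

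Outside the lists, 7163 genes of at least 20 CPM were compared with *Id1* and with *Bmp4* by Pearson's r of log2 CPM over the 6 libraries. The genes most like *Id1* were *Itpk1* (r = 0.995), *Sars2* (0.995) and *Lypla2* (0.994), and 150 genes had an r over 0.95. *Itpk1* had 107.8, 104.9 and 62.3 CPM in wild-type and 140.6, 150.0 and 93.1 CPM in S138A libraries, low in wild-type 3 and S138A C and higher in S138A as *Id1* was. Those most like *Bmp4* were *Vipas39* (0.998), *Hcfc1* (0.998) and *Dhx37* (0.996), with 463 genes over 0.95. *Dhx37* had 70.0, 73.7 and 41.5 CPM in wild-type and 73.6, 73.6 and 41.1 CPM in S138A libraries, which separates wild-type 3 and S138A C but not the genotypes. The points share libraries and genotype, and the values of r are descriptions.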

How the data were processed

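PolyA RNA of 3 wild-type and 3 S138A libraries was analysed. ERCC spike-in RNA was added to the samples, but no row of the table is a spike-in. According to the submitters' processing notes, CASAVA version 1.8.4 made the base calls and TopHat2 version 2.0.11 aligned the reads to mm9 (NCBIM37). The authors deposited raw counts per gene from featureCounts. Its version, its strand setting and the treatment of reads that fit several genes are not given in the sources used here. Libraries were prepared from 500 ng of RNA with a stranded kit. The names of 3 columns identify the wild-type libraries. The other 3 columns were given to the S138A group as a whole.

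R version 4.3.3 was used with edgeR version 4.0.16 for the main test (filterByExpr with minimum counts of 10 per library and 15 in total, TMM factors, quasi-likelihood test on genotype only). DESeq2 version 1.42.0 and limma version 3.58.1 were alternatives. Standard errors were computed as the absolute log2 fold change over the square root of F. Symbols were matched by identifier for 32897 of 37620 genes. Lengths and gene coordinates come from GENCODE M21 (GRCm38), another build than that of the counts. At the depth of 33227593 to 37169770 counts, counting error weighs most on genes with few counts, and it was not computed apart. Each script with a test across genes was tested on simulated data. The simulated counts had the replicate number built in, so they cannot say whether the pairing by number holds.

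The 10 genes, the other gene lists and the tests were chosen with earlier results of these data known. Besides the 10 genes, the text names from each list the genes called in either fit, up to 4 by p-value and the most abundant, not all of which are reported, and the 3 genes most like *Id1* and *Bmp4*. Whether replicate numbers pair the libraries was checked by correlating deviations from the group means. With the last digit of the S138A column names as the number, r was 0.53, 0.493 and 0.753 for the 3 pairs, and the numbers were taken as pairs. Crossing numbers 1 and 2 gave 0.515 and 0.526, so these cannot be told apart, and the pairing comes from column names, not from a stated design. Alternatives were factors by RLE or upper quartile, a filter of only 1 count or of 1 CPM in 3 libraries, DESeq2, limma-voom, a threshold of 0.01, the replicate block, the 4 libraries without number 3, and each library left out in turn. The ratios of counts were chosen after seeing the data, as were *Bmpr1b*, *Hey1*, *Col1a2* and *Kdr* among the genes named.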

Additional observations from a re-analysis of the deposited data

How the results depend on the processing

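With genotype alone in the model, RLE and upper-quartile factors, a filter of 1 CPM, limma-voom and a threshold of 0.01 called 0 genes, as before. No filter beyond 1 count called 4 genes (2 higher and 2 lower), DESeq2 797 (420 and 377), the replicate block 3180 (1717 and 1463) and the 4 libraries without number 3 called 4756 (2463 and 2293). Leaving out single libraries gave between 0 and 79 genes, with 79 (59 and 20) without S138A C. Of the 10 BMP and Id genes, 2 were called with the replicate block and 3 in the 4 libraries, and 0 under each other alternative. Among the 50 other pathway genes the block added 13 calls, 12 higher and 1 lower, beside 10.7% and 9.13% of all genes.

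Over 14 alternatives for each of the 10 genes, 140 in all, 122 kept direction and call, 5 passed the threshold where the comparison had not, and 13 had the opposite sign, each of the latter in a gene that was not called. *Id1*, *Id3*, *Id4*, *Bmpr1a* and *Smad6* kept their direction under all 14. The log2 fold change of *Bmpr2* was 0.0013 with upper-quartile factors and that of *Smad5* was -0.064 in the 4 libraries. With single libraries left out, values ran from -0.18 to 0.37 for *Bmp4*, -0.12 to 0.073 for *Bmpr2*, -0.0030 to 0.072 for *Smad1*, -0.038 to 0.047 for *Smad5* and -0.060 to 0.076 for *Id2*. *Id1* ran from 0.36 without wild-type 3 to 0.77 without S138A C (adjusted p from 0.19 to 0.669), and *Id3* from 0.55 without S138A B to 1.30 without S138A C (adjusted p from 0.104 to 0.766). *Id4* ran from -0.62 without wild-type 1 to -0.32 without wild-type 3, and *Smad6* from 0.01 without S138A B and 0.041 without wild-type 1 to 0.25 without wild-type 3. *Bmpr1a* ran from -0.30 without S138A C to -0.19 without S138A B. The median of all genes lay between -0.01 and 0.04 under every setting. Per-kilobase levels of the 10 genes did not depend on whether the longest coding or the longest transcript of any kind was used.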
